A study of Mus musculus with 12 samples.

Results

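The 10 imprinted genes of growth and brain were taken by gene name from a table of 55862 genes: H19, Igf2, Meg3, Rian, Mirg, Dlk1, Peg3, Grb10, Ndn and Plagl1. All 10 of 10 were present. The study asked how the RNA of astrocytes changed during sphere culture, with cells taken from mouse brain as positive controls. RNA of 12 samples was sequenced, 3 in each of 4 groups, and the cells carried no transgene. ASTs were primary astrocytes from the cortex of C57BL/6 pups of postnatal days 1 to 2, kept in serum and taken before any sphere culture, at day 0. A-iSCs were such astrocytes held for 5 days as spheres in agarose-coated dishes. The group P56-NPC was a cell suspension of the subependymal zone of adult C57BL/6J mice, strained, spun and resuspended in culture medium. The group P0-NPC was a suspension of the hippocampus of C57BL/6J pups at birth. Both NPC groups were dissociated tissue with no sort for progenitors stated, and how soon RNA was taken is not stated either. Age and brain region differ together between them. The labels do not say whether replicates came from separate animals or cultures, so p-values measure the spread between these samples, which may be technical.

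Imprinted genes are expressed mainly from the copy inherited from a single parent, because methylation marks set in egg or sperm are kept at control regions beside them. Many act on growth: paternally expressed genes such as Igf2 tend to promote it and maternally expressed genes such as H19 and Grb10 tend to restrain it. In the brain, several are high in the embryo and newborn and fall as the tissue matures. FPKM counts both parental copies together, so nothing here measures imprinting itself.

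The members differed widely in level. On the FPKM scale, which is corrected for gene length and for library size, Ndn was the highest member in each of the 4 groups. H19, Grb10, Peg3 and Plagl1 followed with a mean of at least 6.27 FPKM in at least 1 group, and Igf2 passed 1 FPKM only in P0-NPCs. Mirg stayed under 1 FPKM, Rian and Meg3 near or under 0.1 FPKM, and Dlk1 was listed at 0 in all 12 samples. A total of 6 members passed the filter of a mean of at least 1 FPKM in at least 1 of 2 compared groups. P0-NPCs had the highest mean of the 9 members with any value above 0. A-iSCs were lower than P0-NPCs in all 6 tested members, where 65.1% of all tested genes were called and 33.6% were called lower, and Igf2 among the 6 passed the filter only through P0-NPCs. Against their own source, ASTs, A-iSCs were lower in Grb10 and Ndn, and the other 3 tested members did not pass the test, where 54.8% of all tested genes were called and 29.6% were called lower.

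**Figure D1:**
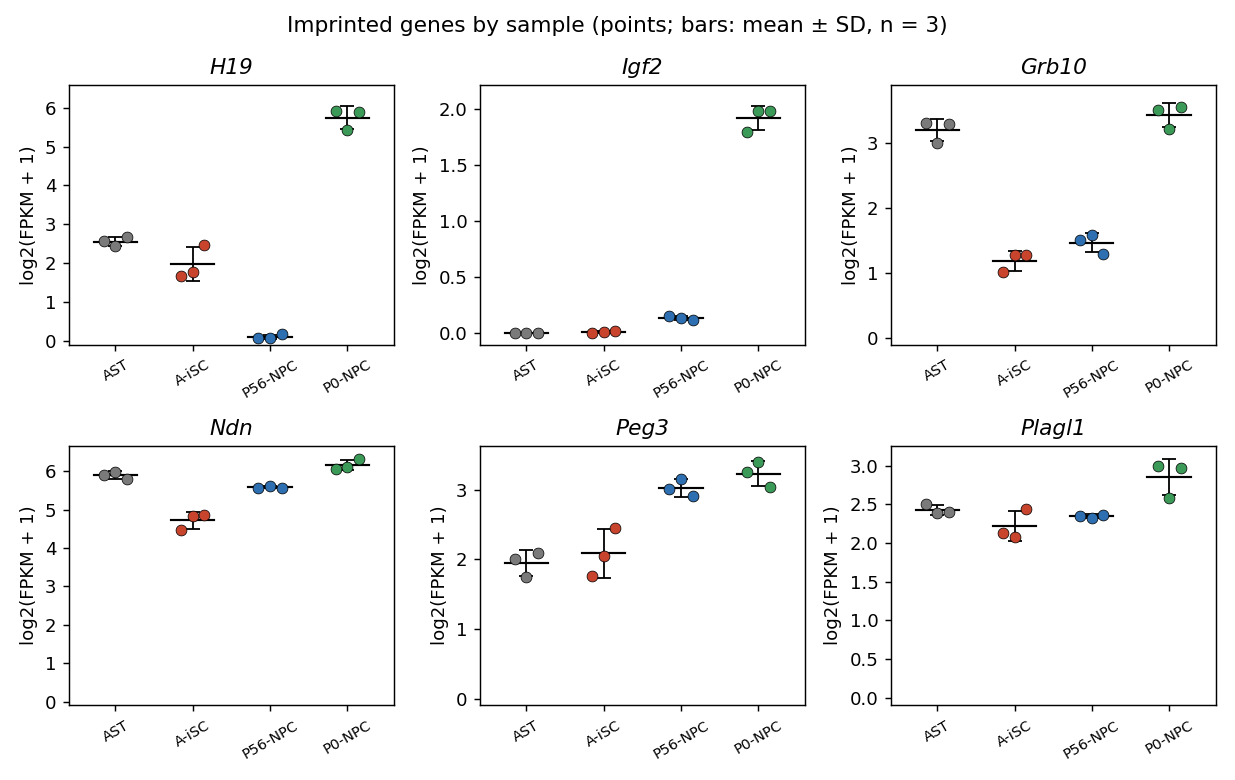
The 6 imprinted genes that passed the filter, as log2(FPKM + 1) per sample on a linear axis, in the 4 groups. Points are samples, horizontal lines are means and vertical bars are SDs of the 3 samples. Grb10 and Ndn sit lowest in A-iSCs, H19 is near 0 in P56-NPCs, and Igf2 is well above 0 in P0-NPCs alone.

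The libraries held 17077780 to 24452419 fragments on genes, so a gene of 1 kb with 3 fragments stood at 0.103 to 0.187 FPKM. Mitochondrial transcripts took 16.5% to 17.6% of the fragments in P56-NPCs and 2.94% to 7.03% in the other groups. AST replicate 2 and A-iSC replicate 3 stood apart from the other 2 libraries of their groups. Their chi-square per degree of freedom was 39.5 and 40.9 for the AST library and 95.1 and 75.5 for the A-iSC library, against 2.51 and 12.3 between the remaining pairs. Astrocyte markers summed to 129 to 149 FPKM in ASTs and 912 to 1986 FPKM in A-iSCs, with all 7 at 1 FPKM or more in each group. The 6 microglia markers summed to 96.5 to 127 FPKM in ASTs and 1084 to 1495 in A-iSCs, and the 6 fibroblast and meningeal markers to 149 to 199 FPKM in ASTs and 5.08 to 7.56 in A-iSCs. The 6 neural progenitor markers summed to 341 to 366 FPKM in ASTs, 286 to 345 in A-iSCs, 109 to 137 in P56-NPCs and 211 to 223 in P0-NPCs. All 6 reached 1 FPKM in each group but ASTs, where Dcx did not. In P56-NPCs and P0-NPCs the markers of several other cell types reached it too. Oligodendrocyte markers summed to 10250 to 11670 FPKM in P56-NPCs, and neuron markers to 761 to 937 FPKM in P0-NPCs.

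H19 and Igf2 lie 72.6 kb apart on chromosome 7 and share an imprinting control region and enhancers, which CTCF binding directs to one gene or the other on each parental copy. H19 (chr7:142575529-142578143, minus strand, GRCm38) is a maternally expressed non-coding RNA that carries the precursor of miR-675 in an exon. Igf2 (chr7:142650766-142666816, minus strand) encodes the paternally expressed insulin-like growth factor 2 and carries miR-483 in an intron. The mature sequences from RefSeq are shown because both genes act as hosts as well as genes, with the seed, bases 2 to 8, in capitals.
mmu-miR-675-5p: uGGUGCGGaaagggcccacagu
mmu-miR-675-3p: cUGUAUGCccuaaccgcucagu
mmu-miR-483-5p: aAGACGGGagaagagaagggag
mmu-miR-483-3p: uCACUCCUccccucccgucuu
The 4 arms have 4 different seeds. These libraries did not measure mature miRNAs, so the values below are of the host transcripts.

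H19 was 4.92, 4.39 and 5.34 FPKM in ASTs, 2.18, 2.39 and 4.56 in A-iSCs, 0.0468, 0.0507 and 0.123 in P56-NPCs, and 59.9, 41.7 and 58.6 in P0-NPCs. The 4 groups were ordered P0-NPC, AST, A-iSC, P56-NPC, and only ASTs and A-iSCs overlapped. Such separation was common, with no overlap between groups in 62.7% of the tested genes for A-iSCs over ASTs, 81.9% for P56-NPCs over ASTs, 81.4% for P0-NPCs over ASTs, 68.5% for A-iSCs over P56-NPCs, 70.7% for A-iSCs over P0-NPCs and 81.2% for P56-NPCs over P0-NPCs. The P0-NPC mean was 53.4 ± 10.1 FPKM (SD, n = 3), 10.9 times the AST mean. The P56-NPC values rested on 2, 2 and 5 fragments. The ratio of ASTs to P56-NPCs over the summed fragments was 66.4, with an exact 95% counting interval of 34.8 to 145.8. That of P0-NPCs to P56-NPCs was 720, with an interval of 379 to 1575. These intervals cover counting error only. On the log2(FPKM + 1) scale, which understates changes of low genes, H19 rose by 3.19 ± 0.147 (SE) in P0-NPCs against ASTs (limma, adjusted p = 5.42e-07). It fell in P56-NPCs against ASTs, a difference of -2.45 ± 0.0893 (adjusted p = 3.93e-07). In the comparisons of P56-NPCs with each other group, H19 passed the filter only through the other group, so the filter set the direction of those calls. In a bulk sample, fewer cells that express a gene and less RNA per cell cannot be told apart.

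In A-iSCs, H19 differed from ASTs by -0.58 ± 0.217 on the log2 scale and did not pass the test (adjusted p = 0.0541). A-iSC replicate 3, at 4.56 FPKM, lay within the AST range, and the other 2 spheres lay below it. Without that library the difference was -0.84 with an adjusted p of 0.000843, and with all 4 groups in the model the difference of -0.58 passed (adjusted p = 0.0201). A-iSCs were 1.87 ± 0.215 above P56-NPCs (adjusted p = 0.00027), a call whose direction the filter set and which rested on 9 fragments in the P56-NPCs. They were below P0-NPCs, a difference of -3.78 ± 0.239 (adjusted p = 7.22e-06).

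Igf2 was listed at 0 in the 3 ASTs, at 0, 0.00735 and 0.013 FPKM in A-iSCs, at 0.111, 0.098 and 0.0849 in P56-NPCs, and at 2.47, 2.93 and 2.95 in P0-NPCs. The cultured cells held 0 to 2 fragments per library, the P56-NPCs 8 to 11 and the P0-NPCs 323 to 489. ASTs and A-iSCs were both at or under the limit of 3 fragments per library, so no fold is given between them. Against that limit, P0-NPCs were at least 97.9-fold higher than ASTs and P56-NPCs at least 3.44-fold higher. P0-NPCs exceeded P56-NPCs 28.6 times, with a counting interval of 19.7 to 43.2. Igf2 passed the filter only through P0-NPCs, which set the direction of its calls in the 3 comparisons with that group. P0-NPCs were 1.92 above ASTs, and the differences from P0-NPCs were -1.91 for A-iSCs and -1.78 for P56-NPCs. Of its 5723 exonic bases, 3596 (62.8%) are shared with Gm49394, a gene of the same strand listed at 0 in all samples. How fragments in shared bases were counted is not given in the sources used here, so the Igf2 level is uncertain, also because the antisense gene Igf2os overlaps it and the kit is not stated to mark strand.

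Within the pair, the balance shifted between the tissue suspensions. The log2 ratio of H19 to Igf2 was 4.6, 3.83 and 4.31 in P0-NPCs and -1.24, -0.95 and 0.54 in P56-NPCs, where both rested on few fragments. The ratio does not depend on the scaling between samples. Markers of vessel and covering cells, which are known to express Igf2, differed between these groups too. The 4 endothelial markers summed to 66.8 to 67.4 FPKM in P0-NPCs and 1.13 to 3.6 elsewhere, and the 4 mural markers to 53.9 to 62.3 against 3.08 to 12.4. The 6 fibroblast and meningeal markers summed to 96.9 to 113 FPKM in P0-NPCs and 4.59 to 9.74 in P56-NPCs. In ASTs, where Igf2 was listed at 0, this list summed to 149 to 199 FPKM, with Dcn, Lum and Slc6a13 under 1 FPKM. Choroid plexus markers summed to 735 to 3789 FPKM in P0-NPCs and 1471 to 3156 in P56-NPCs, nearly all of it Ttr, and Kl was at a mean of 0.289 FPKM in P0-NPCs and 7.63 in P56-NPCs. The part of these cells in the H19 and Igf2 levels was not tested.

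Grb10 and Ndn were the members called lower in A-iSCs than in ASTs. Grb10 (chr11:11930508-12038683, minus strand, GRCm38) encodes an adaptor that binds the insulin and insulin-like growth factor receptors and dampens their signal. It is expressed from the maternal copy in most tissues and from the paternal copy in neurons, from different promoters, which a value per gene does not separate. Ndn (chr7:62346569-62350262, plus strand) encodes necdin, a MAGE family protein of postmitotic neurons that restrains proliferation, and lies in the region deleted in Prader-Willi syndrome. Their RefSeq promoter windows (250 bases before to 50 after the start, GRCm38.p6) are shown because both genes moved the same way, with each CG dinucleotide, the site of DNA methylation, in capitals. The Ndn window is chr7:62348027-62348326 on the plus strand. The Grb10 windows are chr11:12037371-12037670, called upstream here, and chr11:12027922-12028221, called downstream, both on the minus strand. RefSeq places these Ndn and Grb10 starts inside the gene spans given above, so the windows are not at the outermost starts.
Ndn: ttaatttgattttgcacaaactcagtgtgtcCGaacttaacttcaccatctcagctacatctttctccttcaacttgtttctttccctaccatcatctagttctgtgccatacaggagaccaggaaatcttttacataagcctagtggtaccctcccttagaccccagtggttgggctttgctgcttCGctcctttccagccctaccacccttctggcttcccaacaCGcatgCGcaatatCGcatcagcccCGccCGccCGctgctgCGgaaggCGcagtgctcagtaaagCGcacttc
Grb10 upstream: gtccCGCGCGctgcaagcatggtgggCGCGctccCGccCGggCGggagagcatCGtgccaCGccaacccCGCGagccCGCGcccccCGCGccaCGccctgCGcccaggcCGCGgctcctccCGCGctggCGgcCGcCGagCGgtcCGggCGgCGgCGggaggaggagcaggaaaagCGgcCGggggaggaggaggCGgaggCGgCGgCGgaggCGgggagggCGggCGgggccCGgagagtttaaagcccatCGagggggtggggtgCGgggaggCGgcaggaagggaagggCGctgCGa
Grb10 downstream: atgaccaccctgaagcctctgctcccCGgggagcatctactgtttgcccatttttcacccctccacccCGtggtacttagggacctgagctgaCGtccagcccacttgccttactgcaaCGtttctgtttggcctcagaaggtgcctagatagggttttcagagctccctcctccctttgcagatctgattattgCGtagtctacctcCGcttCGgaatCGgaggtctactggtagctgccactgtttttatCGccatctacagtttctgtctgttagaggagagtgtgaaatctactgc
CG was searched as the letters CG, which read the same on both strands. The Ndn window holds 11, the upstream Grb10 window 45 and the downstream one 9, against a median of 7 over 32851 windows of this length, 94.6% of which hold at least 1. Of all windows, 98.1% have fewer than the upstream Grb10 window and 58.6% fewer than that of Ndn. No methylation was measured here.

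Grb10 was 8.9, 7.02 and 8.76 FPKM in ASTs, 1.02, 1.42 and 1.44 in A-iSCs, 1.86, 1.99 and 1.46 in P56-NPCs, and 10.4, 8.29 and 10.8 in P0-NPCs. The groups thus formed a high pair, ASTs and P0-NPCs, which overlapped, and a low pair, A-iSCs and P56-NPCs. In the low pair each A-iSC value was under each P56-NPC value, a separation that 68.5% of tested genes showed in either direction. The AST mean of 8.23 ± 1.05 FPKM was 6.37 times the A-iSC mean of 1.29 ± 0.234. On the log2 scale the difference of A-iSCs from ASTs was -2.01 ± 0.136 (limma, adjusted p = 2.62e-05). P56-NPCs differed from ASTs by -1.73 ± 0.117 (adjusted p = 7.95e-06), and A-iSCs from P0-NPCs by -2.24 ± 0.138 (adjusted p = 6.42e-06). Neither pair passed the test within itself, at -0.28 ± 0.128 for A-iSCs over P56-NPCs (adjusted p = 0.0999) and 0.23 ± 0.127 for P0-NPCs over ASTs (adjusted p = 0.129). Scaling by library size alone turned the first of these to 0.06 and moved the second to 0.49, past the threshold (adjusted p = 0.00985). Upper-quartile scaling moved the second to 0.62 (adjusted p = 0.00124), and leaving out P0-NPC replicate 2 moved it to 0.34 (adjusted p = 0.0419). Library size scaling shifted the median of all genes by 0.465 for A-iSCs over P56-NPCs, 0.274 for P0-NPCs over ASTs, -0.307 for P56-NPCs over ASTs and -0.531 for P56-NPCs over P0-NPCs, and upper-quartile scaling shifted it by 0.394 for P0-NPCs over ASTs, so values under these scalings are to be read against those shifts. The 6 fibroblast and meningeal markers summed to 149 to 199 FPKM in ASTs and 96.9 to 113 in P0-NPCs, and to 5.08 to 7.56 in A-iSCs and 4.59 to 9.74 in P56-NPCs. Most of the AST sum was Col1a1, at a mean of 158 FPKM. Col1a1, Col1a2 and Foxc1 were higher in ASTs and P0-NPCs than in A-iSCs and P56-NPCs, as Grb10 was. Dcn, Lum and Slc6a13 were not, with means in ASTs of 0.248, 0.0374 and 0.0305 FPKM against 1.68, 0.701 and 0.243 in P56-NPCs. None of the 6 was at 0 in any group, and their part in the Grb10 level was not tested.

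Ndn was 59.3, 62.7 and 54.8 FPKM in ASTs, 21.1, 27.8 and 28 in A-iSCs, 46.3, 48.5 and 46.7 in P56-NPCs, and 66.2, 67.7 and 78.8 in P0-NPCs. No 2 groups overlapped, and the order was P0-NPC, AST, P56-NPC, A-iSC. Per pair of groups, 62.7% to 81.9% of tested genes showed no overlap either. Its mean in A-iSCs, 25.6 ± 3.92 FPKM, was still above 94.7% of the genes with any value in the table. ASTs exceeded A-iSCs 2.3 times, a log2 difference of -1.18 ± 0.145 for A-iSCs (limma, adjusted p = 0.000439). A-iSCs were also lower than P56-NPCs, at -0.87 ± 0.129 (adjusted p = 0.000963), and lower than P0-NPCs, at -1.44 ± 0.146 (adjusted p = 7.93e-05). The difference from P56-NPCs lost the call when samples were scaled by library size alone, at -0.32 (adjusted p = 0.0658). Although Ndn is known from neurons, the serum-grown ASTs held it at a level near that of the suspensions. The 6 neuron markers summed to 88.1 to 124 FPKM in ASTs with Rbfox3, Snap25 and Syt1 under 1 FPKM, and to 47.5 to 63.6 FPKM in A-iSCs with the same 3 under 1 FPKM. Of these markers, Stmn2 had a lower mean in A-iSCs, at 7.16 against 53.8 FPKM, Tubb3 was at 37.8 against 40.7, and Map2, Rbfox3 and Snap25 had higher means in A-iSCs. The summed fibroblast and meningeal markers were lower in A-iSCs too, as given for Grb10, mainly through Col1a1 and Col1a2, while Lum had the higher mean in A-iSCs. The part of either list in the Ndn level was not tested.

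The smaller Ndn differences depended on the scaling and on single libraries. P56-NPCs differed from ASTs by -0.31 ± 0.0774 (adjusted p = 0.00744), by -0.14 with upper-quartile scaling (adjusted p = 0.18) and by -0.65 with library size alone (adjusted p = 8.48e-05). P0-NPCs differed from ASTs by 0.26 ± 0.107 and missed the threshold (adjusted p = 0.0534). Scaling by library size alone gave 0.55 (adjusted p = 0.00072), upper-quartile scaling gave 0.68 (adjusted p = 0.000799), leaving out AST replicate 2 gave 0.31 (adjusted p = 0.0218), and limma-voom on the fragments recovered from the FPKM gave 0.26 (adjusted p = 0.0407).

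Peg3 and Plagl1 encode zinc finger proteins expressed from the paternal copy. Peg3 (chr7:6703892-6730431, minus strand, GRCm38) is known for its part in maternal behaviour and in cell death downstream of p53, and starts 147 bases from the start of the imprinted gene Usp29, which is read the other way. Plagl1 (chr10:13060504-13131694, plus strand), also called Zac1, encodes a transcription factor that can arrest the cell cycle and is known to act on a network of imprinted genes. The RefSeq window of Peg3 (chr7:6730370-6730669, minus strand) is shown because it covers the start of the gene beside Usp29, again with CG in capitals.
Peg3: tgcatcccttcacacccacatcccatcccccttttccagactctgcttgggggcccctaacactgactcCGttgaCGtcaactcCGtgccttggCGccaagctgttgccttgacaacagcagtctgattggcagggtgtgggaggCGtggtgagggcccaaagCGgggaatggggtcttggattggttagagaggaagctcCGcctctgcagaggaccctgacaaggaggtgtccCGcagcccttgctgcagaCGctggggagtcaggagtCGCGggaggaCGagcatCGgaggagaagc
It holds 13 CG dinucleotides, more than 62.1% of all windows, and the window of Plagl1 holds 26, more than 83.1%.

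Peg3 was 3.01, 2.34 and 3.27 FPKM in ASTs, 2.38, 3.12 and 4.47 in A-iSCs, 7.07, 7.92 and 6.5 in P56-NPCs, and 8.51, 9.53 and 7.21 in P0-NPCs. Every suspension was above every culture, while the cultures overlapped each other and so did the suspensions. In the single pairs of a culture and a suspension, 68.5% to 81.9% of tested genes showed no overlap. The share for the joint split was not computed. P56-NPCs exceeded ASTs by 1.08 ± 0.115 on the log2 scale (limma, adjusted p = 9.35e-05) and P0-NPCs by 1.28 ± 0.13 (adjusted p = 4.05e-05). A-iSCs fell short of P56-NPCs, at -0.94 ± 0.181 (adjusted p = 0.00338), and of P0-NPCs, at -1.14 ± 0.189 (adjusted p = 0.00109). Library size scaling moved the first of these to -0.48 (adjusted p = 0.0499). Between A-iSCs and ASTs the difference was 0.14 ± 0.194 (adjusted p = 0.576), and -0.05 without A-iSC replicate 3. P56-NPCs and P0-NPCs differed by -0.20 ± 0.108 (adjusted p = 0.122), which library size scaling moved to -0.76 (adjusted p = 0.000387), upper-quartile scaling to -0.43 (adjusted p = 0.00731) and leaving out P0-NPC replicate 3 to -0.30 (adjusted p = 0.0309). Usp29, named for its place and not by a rule, was 0.0482 ± 0.0076 FPKM in ASTs, 0.0787 ± 0.0474 in A-iSCs, 0.765 ± 0.044 in P56-NPCs and 1.39 ± 0.146 in P0-NPCs, so it too was higher in each suspension than in each culture.

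Plagl1 varied least among the members above 1 FPKM, with 1.7 times between the highest and the lowest group mean. It was 4.66, 4.21 and 4.28 FPKM in ASTs, 3.39, 3.22 and 4.44 in A-iSCs, 4.08, 3.99 and 4.16 in P56-NPCs, and 6.98, 5 and 6.83 in P0-NPCs. In the single pairs with P0-NPCs, 70.7% to 81.4% of tested genes showed no overlap. P0-NPCs lay above the other 3 groups. They exceeded ASTs by 0.42 ± 0.123 (limma, adjusted p = 0.0133), and this call was lost without P0-NPC replicate 1 (adjusted p = 0.0556) or replicate 3 (adjusted p = 0.0547). Library size scaling moved it to 0.67 and upper-quartile scaling to 0.78. A-iSCs differed from P0-NPCs by -0.63 ± 0.157 (adjusted p = 0.00856) and P56-NPCs by -0.51 ± 0.114 (adjusted p = 0.00415), which library size scaling moved to -1.02. A-iSCs over ASTs, at -0.21 ± 0.129 (adjusted p = 0.206), P56-NPCs over ASTs, at -0.08 ± 0.0678 (adjusted p = 0.289), and A-iSCs over P56-NPCs, at -0.13 ± 0.119 (adjusted p = 0.387), did not pass. Without A-iSC replicate 3, A-iSCs differed from ASTs by -0.32 (adjusted p = 0.0214) and from P56-NPCs by -0.24 (adjusted p = 0.019). The directions against P56-NPCs depended on the scaling: library size alone gave 0.31 for A-iSCs over P56-NPCs (adjusted p = 0.0507) and -0.35 for P56-NPCs over ASTs, past the threshold (adjusted p = 0.00352), and upper-quartile scaling gave 0.06 for the latter (adjusted p = 0.467).

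**Figure D2:**
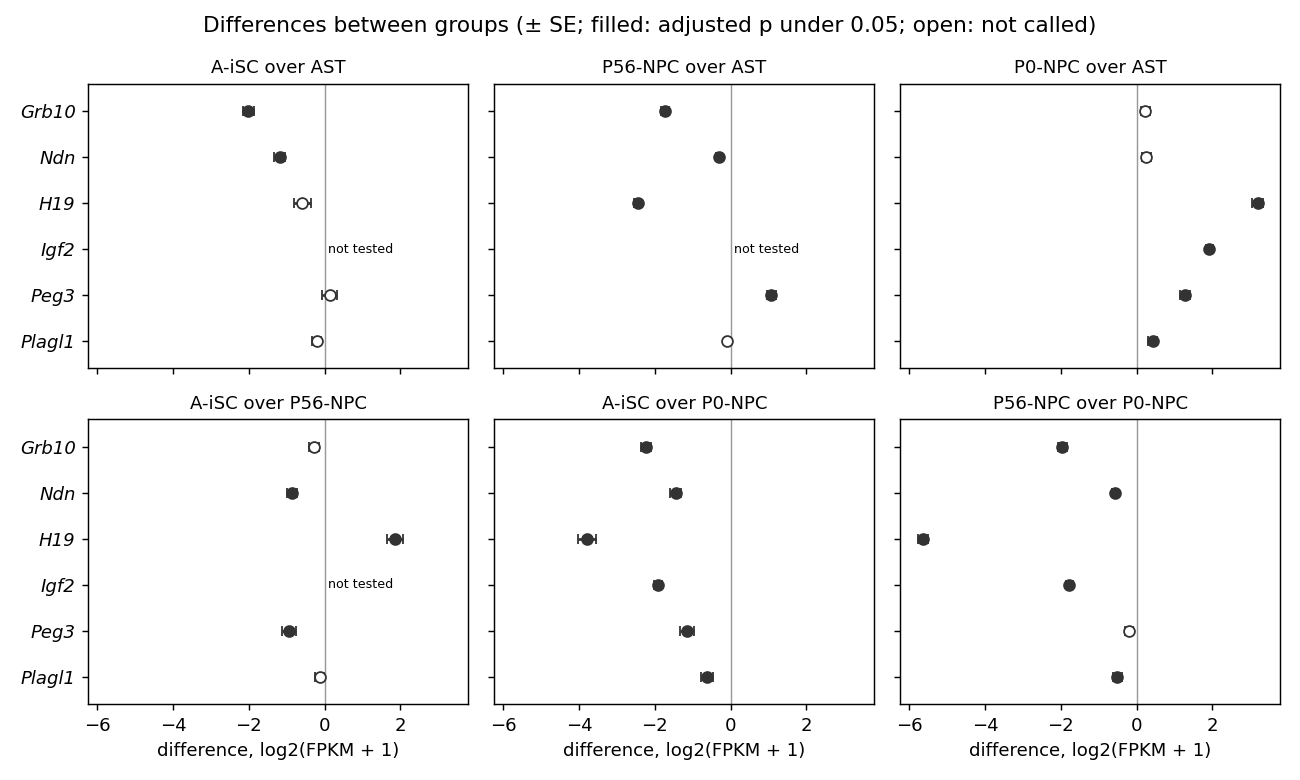
Differences between groups on the log2(FPKM + 1) scale for the 6 members that passed the filter, 1 panel per comparison, with the standard error of the limma fit as bars. Filled points have an adjusted p under 0.05 and open points do not. All 6 points lie left of 0 for A-iSCs over P0-NPCs, and Grb10 and Ndn are the filled points for A-iSCs over ASTs.

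Meg3, Rian, Mirg and Dlk1 belong to the Dlk1-Dio3 cluster of chromosome 12. On the paternal copy it expresses the protein-coding genes Dlk1, Rtl1 and Dio3. On the maternal copy it expresses a run of non-coding RNAs, of which Meg3 is the first, Rian hosts small nucleolar RNAs and Mirg hosts miRNAs. Meg3 spans chr12:109541001-109571726, Rian chr12:109603808-109661716, Mirg chr12:109729764-109749460 and Dlk1 chr12:109452823-109463336, all on the plus strand of GRCm38. In the 828 kb from the start of Dlk1 to the end of the region (chr12:109452823-110281097), the table lists 116 genes, of which 88 were at 0 in all 12 samples. Of its 67 miRNA precursors 13 had any fragment, and of its 23 small nucleolar RNAs 0 had.

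Mirg holds 14 miRNA genes with 26 mature sequences in RefSeq. These had 25 different seeds, and 1 seed occurred in 2 of them. That pair is shown with both arms of miR-3072, whose precursor had the most fragments of the cluster's miRNAs, and with an arm of miR-154. Seeds are in capitals.
mmu-miR-453: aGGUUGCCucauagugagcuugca
mmu-miR-496a-5p: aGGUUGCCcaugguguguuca
mmu-miR-154-3p: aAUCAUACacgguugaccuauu
mmu-miR-3072-5p: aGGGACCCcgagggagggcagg
mmu-miR-3072-3p: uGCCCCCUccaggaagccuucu
The Mir3072 precursor had 0 fragments in ASTs and in A-iSCs, 3 in P56-NPCs and 6 in P0-NPCs. Libraries of total RNA made for long transcripts capture such short precursors poorly, and Mirg and its miRNAs share bases, so no comparison is drawn from them.

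Mirg was 0.654, 0.812 and 0.613 FPKM in ASTs, 0.367, 0.415 and 0.123 in A-iSCs, 0.198, 0.111 and 0.25 in P56-NPCs, and 0.713, 0.984 and 0.528 in P0-NPCs, resting on 13 to 209 fragments per library. The values split into a high pair, ASTs and P0-NPCs, and a low pair, A-iSCs and P56-NPCs, with overlap inside each pair and none across. The shares without overlap given for H19 cover genes of at least 1 FPKM, and none was computed for genes this low. Because Mirg, Rian and Meg3 were under the 1 FPKM filter, they were tested on the recovered fragments with limma-voom over genes with a mean of at least 10 fragments, a fit that was added with the values already in view. Mirg was lower in A-iSCs than in ASTs, at -1.41 ± 0.42 (limma-voom, adjusted p = 0.0202), and the call was lost without AST replicate 2 (-1.29, adjusted p = 0.0713), while leaving out A-iSC replicate 3 moved it to -0.81 (adjusted p = 0.0133). It was lower in P56-NPCs than in ASTs, at -1.94 ± 0.302 (adjusted p = 0.000319), and than in P0-NPCs, at -2.0 ± 0.391 (adjusted p = 0.000908). A-iSCs were below P0-NPCs, at -1.47 ± 0.441 (adjusted p = 0.0151), and the call was lost without P0-NPC replicate 2 (adjusted p = 0.0584), while leaving out A-iSC replicate 3 moved it to -0.87 (adjusted p = 0.0227). A-iSCs and P56-NPCs differed by 0.52 ± 0.567 (adjusted p = 0.461), and by 1.12 without A-iSC replicate 3 (adjusted p = 0.0117). P0-NPCs and ASTs differed by 0.06 ± 0.253 (adjusted p = 0.836), a direction that turned without AST replicate 3 or P0-NPC replicate 2.

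Rian did not follow Mirg. It was 0.0242, 0.0463 and 0.0505 FPKM in ASTs, 0.00931, 0.0237 and 0.00117 in A-iSCs, 0.054, 0.0857 and 0.0835 in P56-NPCs, and 0.0451, 0.0741 and 0.106 in P0-NPCs, resting on 1 to 93 fragments per library. Its length in the table, 31981 bases, is above the 18234 exonic bases of GENCODE M21, so its level beside other genes is uncertain. A-iSCs had the lowest mean and overlapped no other group. The nearest values were A-iSC replicate 2, at 0.0237 FPKM on 18 fragments, and AST replicate 1, at 0.0242 on 13. This gap is small enough to depend on the scaling between samples. No share of genes without overlap was computed for genes this low. With 25 fragments in all, A-iSCs were under the filter of a mean of 10 fragments. Rian thus passed it only through the other group in each comparison with them, which largely set the direction of those calls. A-iSCs were below P56-NPCs, at -3.35 ± 0.764 (limma-voom, adjusted p = 0.00568) and below P0-NPCs, at -3.33 ± 0.786 (adjusted p = 0.00447), and leaving out A-iSC replicate 3 moved these to -2.19 and -2.18. Against ASTs the difference was -2.47 ± 0.811 (adjusted p = 0.0307), and leaving out AST replicate 2 or 3 or A-iSC replicate 1 or 3 ended the call, at -1.31 in the last case. P56-NPCs were above ASTs by 0.88 ± 0.341 (adjusted p = 0.0405), a call lost without AST replicate 1 (adjusted p = 0.132) or P56-NPC replicate 2 (adjusted p = 0.112) or 3 (adjusted p = 0.0994). The log2 ratio of Mirg to Rian within a sample was 0.37 to 1.87 in P56-NPCs and 2.32 to 6.72 in the other 9 samples. Its lowest value outside P56-NPCs was in a P0-NPC.

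Meg3 was 0.0396, 0.0136 and 0.0149 FPKM in ASTs, 0.011, 0.0512 and 0.00825 in A-iSCs, 0.00318, 0 and 0.0101 in P56-NPCs, and 0.0387, 0.0665 and 0.0502 in P0-NPCs. These levels rest on 0 to 35 fragments per library over an annotated length of 18089 bases. How genes were counted is not given in the sources used here, so the levels of Meg3, Rian and Mirg are uncertain. P56-NPCs, with 4 fragments in all, were below P0-NPCs, with 76, at -3.51 ± 0.721 (limma-voom, adjusted p = 0.00124). Meg3 passed the filter only through P0-NPCs, which largely set the direction of this call. The ratio of P0-NPCs to P56-NPCs over the summed fragments was 11.9, with a counting interval of 4.47 to 44.9. ASTs, with 22 fragments in all, were under the filter too, so Meg3 again passed only through P0-NPCs. P0-NPCs were above ASTs by 1.30 ± 0.462 (adjusted p = 0.0242), a call lost without AST replicate 2 (adjusted p = 0.0931) or 3 (adjusted p = 0.0789) or P0-NPC replicate 2 (adjusted p = 0.0726). A single A-iSC library, replicate 2, held 22 of the 30 fragments of its group. A-iSCs and ASTs differed by -0.23 ± 0.752 (adjusted p = 0.814), and the direction turned without AST replicate 1, A-iSC replicate 1 or A-iSC replicate 3.

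Dlk1, a transmembrane ligand-like protein that holds cells in an undifferentiated state, was listed at 0 in all 12 samples, as was its neighbour Rtl1. A count of 0 allows up to 3 fragments per library, which for Dlk1 is 0.0182 to 0.033 FPKM and covers counting error only. How the authors counted genes is not given in the sources used here, so the limit holds only if fragments of Dlk1 were counted to it. At the far end of the cluster, Dio3, the enzyme that inactivates thyroid hormone, was high in the spheres. It was 0.0881, 0.17 and 0.053 FPKM in ASTs, 2.69, 2.53 and 2.87 in A-iSCs, 0.482, 0.552 and 0.479 in P56-NPCs, and 0.926, 0.508 and 1.07 in P0-NPCs. Each A-iSC value was above each value of the other groups. Of tested genes, 62.7% showed no overlap of A-iSCs with ASTs in either direction, 68.5% none with P56-NPCs and 70.7% none with P0-NPCs. A-iSCs exceeded ASTs by 1.74 ± 0.109 (limma, adjusted p = 1.95e-05). Dio3 passed the filter only through the A-iSCs, so the filter set the direction of this call.

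**Figure D3:**
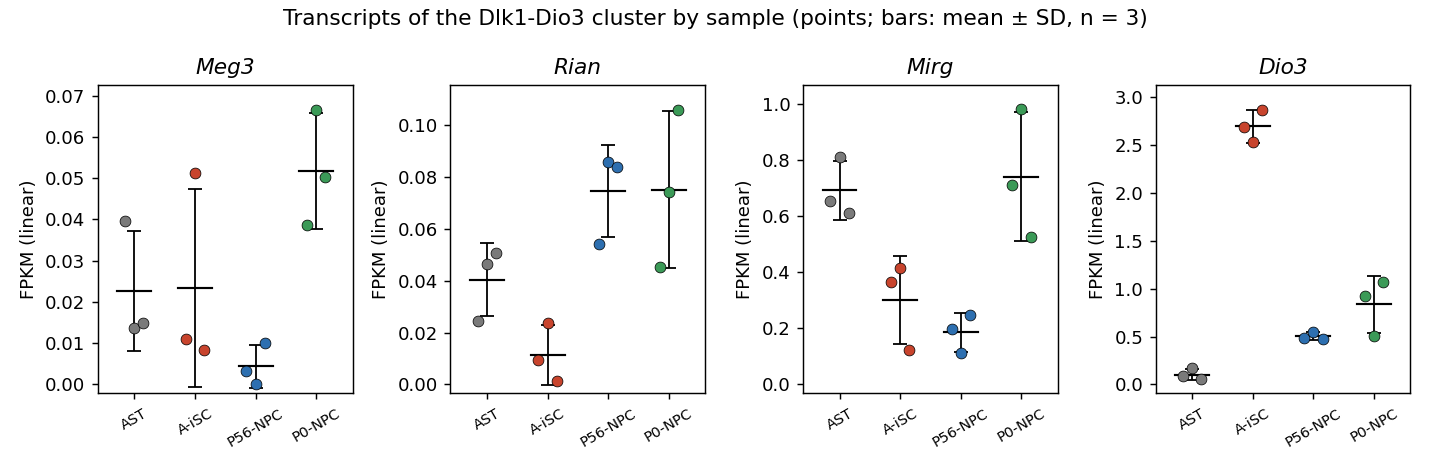
FPKM per sample, on linear axes that differ between panels, of Meg3, Rian, Mirg and Dio3, the transcripts of the Dlk1-Dio3 cluster described in the text. Points are samples, horizontal lines are means and vertical bars are SDs of the 3 samples. The 3 non-coding RNAs are at or under 1 FPKM throughout, and Dio3 lies between 2.53 and 2.87 FPKM in A-iSCs.

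Counts over the members are set beside the share of all tested genes. Members that passed the filter through 1 of the 2 groups alone are named, since the filter set the direction of their calls. In A-iSCs over ASTs, 2 of 5 tested members were called, both lower, where 54.8% of all tested genes were called and 29.6% were called lower. In P56-NPCs over ASTs, 4 of 5 were called, 1 higher and 3 lower, against 78.9% of all genes, and H19 passed through ASTs alone. In P0-NPCs over ASTs, 4 of 6 were called, each higher, against 79.0% (38.1% higher), and Igf2 passed through P0-NPCs alone. In A-iSCs over P56-NPCs, 3 of 5 were called, 1 higher and 2 lower, against 61.0%. The one called higher was H19, which passed through A-iSCs alone. In A-iSCs over P0-NPCs, 6 of 6 were called lower, against 65.1% called and 33.6% called lower, and Igf2 passed through P0-NPCs alone. In P56-NPCs over P0-NPCs, 5 of 6 were called lower, against 78.8% called and 39.0% called lower, and both H19 and Igf2 passed through P0-NPCs alone. Of all tested genes, 17.5% to 25.9% passed through 1 group alone. The shares called were thus near or below the background in most comparisons, and these comparisons share samples. With limma-voom on the low genes, 53.3% of all genes were called in A-iSCs over ASTs, 77.7% in P56-NPCs over ASTs, 77.6% in P0-NPCs over ASTs, 57.6% in A-iSCs over P56-NPCs, 63.5% in A-iSCs over P0-NPCs and 74.2% in P56-NPCs over P0-NPCs.

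Other imprinted genes moved in both directions. Of 45 further imprinted genes listed, 44 were in the table and 24 were tested in A-iSCs over ASTs, with 8 higher and 9 lower, where 54.8% of all tested genes were called and 29.6% were called lower. Of the 8, Dio3 and Cdkn1c passed the filter only through the A-iSCs. Those that rose most were Nnat, a small membrane proteolipid of the developing brain, from 14.5 ± 1.44 to 270 ± 66 FPKM (4.11 on the log2 scale, adjusted p = 7.64e-06), Nap1l5, a nucleosome assembly protein of the brain, by 1.85 (adjusted p = 0.000182), Dio3, and Ppp1r9a, the actin-binding neurabin, by 1.17 (adjusted p = 7.01e-05). Those that fell most were Mest, from 63.8 ± 10.7 to 7.21 ± 2.34 FPKM (-3.0, adjusted p = 3.92e-05), Peg10, a retrotransposon-derived gene (-1.98, adjusted p = 1.01e-05), Osbpl5, an oxysterol-binding protein relative (-1.45, adjusted p = 4.85e-05), and Tssc4 (-1.31, adjusted p = 0.00336). Mest and Nnat are both paternally expressed and moved in opposite directions. Among the 12 tested genes listed as paternally expressed 6 were higher and 5 lower, and among the 12 listed as maternally expressed 2 were higher and 4 lower. The listed copy need not be the one expressed in these cells, which was not measured.

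**Figure D4:**
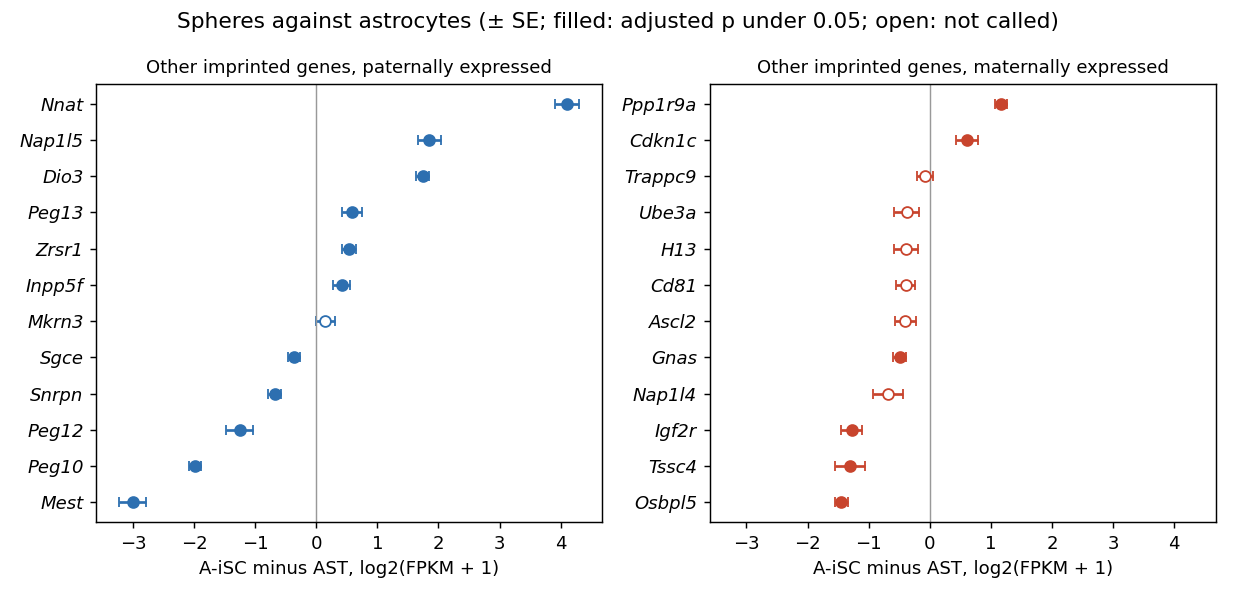
Differences of A-iSCs from ASTs on the log2(FPKM + 1) scale for the 24 other imprinted genes tested, with standard errors of the limma fit as bars. The panels split the genes by the parental copy listed as expressed, which need not hold in these cells. Filled points have an adjusted p under 0.05. Nnat lies at 4.11 and Mest at -3.0, and both panels hold points on both sides of 0.

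Genes of the insulin-like growth factor axis, in which Igf2 and Grb10 act, differed in both directions between A-iSCs and ASTs. Of 20 listed genes 14 were tested, with 1 higher and 11 lower, where 54.8% of all tested genes were called and 29.6% were called lower, and 1 of the 11, Pappa, passed the filter only through the ASTs. The one that rose was Igf1, the sister ligand of Igf2, at 4.48, 5.75 and 4.62 FPKM in ASTs and 30.5, 24.2 and 18 in A-iSCs (2.06 on the log2 scale, adjusted p = 0.000126). Microglia express Igf1, and the 6 microglia markers summed to 96.5 to 127 FPKM in ASTs, with P2ry12 under 1 FPKM, and to 1084 to 1495 in A-iSCs, with none at 0. Their part in the Igf1 level was not tested. The binding proteins Igfbp2 and Igfbp3, which hold the ligands outside the cell, fell from means of 5225 and 587 FPKM to 184 and 70.2 (-4.85, adjusted p = 1.51e-05, and -3.10, adjusted p = 6.55e-05). Igf2r, the imprinted receptor that clears Igf2, fell from 16.9 ± 3.7 to 6.3 ± 0.759 FPKM (-1.28, adjusted p = 0.00081). Igf1r, the signalling receptor, differed by -0.98 (adjusted p = 0.000485), and Insr, the insulin receptor, by -0.16 (adjusted p = 0.264).

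A list of 14 genes, called imprint maintenance here, also held genes that set or remove DNA methylation, such as Dnmt3a and the Tet genes. In A-iSCs over ASTs 9 were tested, with 5 higher and 3 lower, where 54.8% of all tested genes were called. The 5 were Ctcf, Zfp445, Dnmt3a, Tet2 and Tet3, and the 3 were Trim28, Dnmt1 and Uhrf1. Of these, Tet2 and Tet3 passed the filter only through the A-iSCs. Uhrf1, which brings the maintenance methyltransferase to newly copied DNA, fell from 13.2 ± 1.4 to 3.17 ± 0.709 FPKM (-1.78, adjusted p = 8.69e-05), and Dnmt1, that enzyme, differed by -0.59 (adjusted p = 0.00528). Dnmt3a, a methyltransferase that sets marks anew, rose by 0.82 (adjusted p = 0.00115). Zfp57, a zinc finger protein that binds methylated imprinting control regions, differed by -0.03 between A-iSCs and ASTs (adjusted p = 0.931). It was 42.5, 47.4 and 41.8 FPKM in P0-NPCs and 1.03 to 2.92 FPKM in the 9 other samples. Its difference of A-iSCs from P0-NPCs was -3.85 (adjusted p = 7.59e-06).

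Across the 12 samples, each member's nearest genes were ranked by Pearson's r of log2(FPKM + 1) among genes with a mean of at least 5 FPKM in any group. As the samples form 4 groups, r describes mainly the group pattern and no p is given. H19 was nearest to Nrp2 (r = 0.995), Eml4 (0.992) and Polr3f (0.992), and Igf2 to Runx1t1 (0.999), Slc6a13 (0.998) and 1600029O15Rik (0.997). Slc6a13 is also a marker in the fibroblast and meningeal list. Grb10 was nearest to Tmpo (0.993), Cxcl12 (0.986) and Hunk (0.985), and Ndn to Calm2 (0.982), Ctnnbip1 (0.959) and Tacc2 (0.957). Peg3 was nearest to Itih5 (0.988), Zfyve9 (0.987) and Acaca (0.983), and Plagl1 to Tgfb2 (0.962), Gm10282 (0.942) and Hmgn2-ps1 (0.939). Between members, r was 0.857 for H19 and Igf2 and 0.855 for Grb10 and Ndn. Of the 10503 genes ranked for Ndn, 102 had a higher r than Grb10, and for H19 576 had a higher r than Igf2. Peg3 and Grb10 had the lowest r between members, 0.16.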

How the data were processed

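RNA of 12 samples in 4 groups of 3 was analysed. The authors prepared libraries from total RNA with a NEBNext Ultra kit, sequenced paired ends on Illumina HiSeq and removed low-quality reads. The deposited table holds FPKM per gene and sample, with gene lengths in bases. GENCODE M21 holds 55240 of its identifiers, 54985 at an identical position, so coordinates are on GRCm38. The submitters' processing notes name Bowtie 0.12.2 and mm8, which do not match these positions, and how genes were counted is not given in the sources used here. Values times gene length came out as whole fragments (100% of values within 0.01), which gave fragments and library size per sample. That size was the counted total times a factor of 0.744 to 1.22, so the FPKM already hold a scaling between samples.

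As the values are FPKM, each pair of groups was fitted to log2(FPKM + 1) by limma 3.58.1 (R 4.3.3; lmFit, then eBayes with a trend). Genes with a mean of at least 1 FPKM in 1 of the groups were tested. A call meant an adjusted p (Benjamini-Hochberg, over all tested genes) under 0.05. The code was checked on simulated data. Differences are means of the first group minus the second. Ratios with few fragments have exact binomial intervals over summed fragments. Depth limits and intervals cover counting error only. Alternatives were scaling by library size or upper quartile, a pseudocount of 0.1, no filter, a model of all 4 groups, a replicate block, limma-voom on recovered fragments and leaving out each sample. Limma-voom over genes with a mean of at least 10 fragments was added after the data were seen.

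The members and gene lists were chosen with earlier results of these data known. The naming rule took all members, the 4 largest and 4 smallest called differences of A-iSCs over ASTs among other imprinted genes, genes of the IGF axis and imprint maintenance lists, and the 3 genes nearest to each member. Python 3.11.15 with numpy 2.4.6, pandas 2.3.3 and matplotlib 3.10.9 served the other steps. No sample was left out.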

Additional observations from a re-analysis of the deposited data

How the results depend on the processing

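Over 50 differences of single members and 579 alternative values, 527 kept their direction and side of the threshold, 16 lost the call, 24 gained it and 12 turned direction. In the 12, neither value passed the threshold, and the cause was not tested. They were Peg3 in A-iSCs over ASTs without A-iSC replicate 3 (-0.047, to 0.301 without A-iSC replicate 1), Plagl1 in P56-NPCs over ASTs with upper-quartile scaling (0.055), and Grb10 (0.058) and Plagl1 (0.312) in A-iSCs over P56-NPCs with library size alone. The others were single libraries left out on recovered fragments: Meg3 in A-iSCs over ASTs without AST replicate 1 (0.208) or A-iSC replicate 1 (0.0075) or 3 (0.325; lowest -0.503), Mirg in P0-NPCs over ASTs without AST replicate 3 (-0.026) or P0-NPC replicate 2 (-0.187; highest 0.293), and Rian in P56-NPCs over P0-NPCs without P56-NPC replicate 2 (-0.104) or 3 (-0.089) or P0-NPC replicate 1 (-0.272; highest 0.293).

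The number of members called moved by over 1.5 times in A-iSCs over ASTs, from 2 to 4 with limma-voom and low genes kept, which adds Mirg and Rian to the genes tested, and to 4 without A-iSC replicate 3, which adds H19 and Plagl1. It moved in A-iSCs over P56-NPCs from 3 to 5 without the filter, which tests more genes. Leaving out 1 library gave 2 to 4 calls in A-iSCs over ASTs, 4 to 4 in P56-NPCs over ASTs, 3 to 5 in P0-NPCs over ASTs, 3 to 4 in A-iSCs over P56-NPCs, 6 to 6 in A-iSCs over P0-NPCs and 5 to 6 in P56-NPCs over P0-NPCs. Other imprinted genes called in A-iSCs over ASTs went from 17 to 26 with low genes kept, and imprint maintenance genes called in A-iSCs over P56-NPCs from 3 to 7 with library size alone.

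Replicate numbers did not pair the samples: same-numbered samples of A-iSCs and ASTs had correlations of deviations of -0.409, 0.351 and 0.452, and in none of the 6 comparisons did each sample correlate best with its own number. With the replicate block, 46 of 50 member results kept their side and 4 gained the call: H19 in A-iSCs over ASTs (adjusted p = 0.0179), Grb10 (adjusted p = 0.0495) and Rian (adjusted p = 0.0341) in P0-NPCs over ASTs, and Peg3 in P56-NPCs over P0-NPCs (adjusted p = 0.0315). With it the members called were 3, 4, 5, 3, 6 and 6 in the order of the comparisons above.

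Scaling moved the split of calls over all genes. With library size alone, A-iSCs over P56-NPCs had 8329 higher and 2857 lower against 4532 and 4643, P56-NPCs over P0-NPCs 3438 and 9428 against 6115 and 6011, P56-NPCs over ASTs 4569 and 7559 against 5924 and 6032, P0-NPCs over ASTs 7106 and 4860 against 5713 and 6146, and A-iSCs over ASTs 4563 and 2989 against 3550 and 4165. With the upper quartile, the numbers were 7679 and 4221 in P0-NPCs over ASTs, 4377 and 2938 in A-iSCs over ASTs, 3825 and 6471 in A-iSCs over P0-NPCs (4773 and 5103 before) and 4928 and 7539 in P56-NPCs over P0-NPCs. Depth limits Meg3, Rian, Igf2 outside P0-NPCs and H19 in P56-NPCs. Whether the way genes were counted also lowered Meg3, Rian and Mirg is not known.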

Other observations

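Dio3os, an antisense RNA beside Dio3 that was not named by a rule, had 1 fragment over the 3 ASTs, 246 over the A-iSCs, 87 over the P56-NPCs and 14 over the P0-NPCs. The libraries are not stated to mark strand, so fragments of Dio3 and Dio3os cannot be told apart where the genes overlap. B830012L14Rik, a non-coding RNA of the same cluster and likewise chosen after its values were seen, had 21 fragments over the P0-NPCs and 1 in each of the other groups. Cdkn1c, a maternally expressed inhibitor of the cell cycle that no rule named, was 0.872 ± 0.0233 FPKM in ASTs, 1.92 ± 0.667 in A-iSCs, 7.47 ± 1.86 in P56-NPCs and 22.8 ± 4.48 in P0-NPCs.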
